A study of Gallus gallus with 12 samples.

Results

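The cytochrome P450 (CYP) and conjugation enzymes of the chicken were described here as 48 genes of the 18332 in the expression tables. They were chosen by symbol, as numbered CYP genes, UDP-glucuronosyltransferase (UGT) genes, glutathione S-transferase (GST) genes of the classes A, K, M, O, T and Z, and sulfotransferase (SULT) genes. The bile acid and sterol enzymes CYP7A1, CYP8B1, CYP27A1 and CYP51A1, 4 genes in all, were left out by the rule. There were 30 CYP, 3 UGT, 9 GST and 6 SULT genes. No genome sequence came with the tables, and therefore genes are given by symbol and NCBI gene ID without coordinates.

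RNA-seq had been carried out on liver and on abdominal fat from chickens that the study calls normal. These were female purebred Xinghua birds that are not sex-linked dwarfs. The labels give the age as 8 weeks. In the paper's methods this is the age at the start of feeding, and slaughter followed after some weeks on the diets. The birds were therefore older at sampling than the labels state. The birds were fed either a high-fat diet (HFD; HN birds) or a normal diet (NN birds), and each of the 4 groups (HN liver, NN liver, HN fat and NN fat) held 3 libraries. The labels give no other treatment and set HN apart from NN by the diet alone. By the paper's description the HFD held much more fat than the normal diet, and slightly less protein and carbohydrate. A difference between HN and NN therefore belongs to the whole diet and not to fat alone. Sex-linked dwarf birds were not analysed here.

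As background, P450 enzymes insert 1 oxygen atom into a lipophilic substrate, with electrons passed on by a reductase, and the product is often joined to glucuronic acid by UGTs, to glutathione by GSTs or to sulfate by SULTs before export. In liver these genes clear drugs, plant compounds and endogenous lipids, and many respond to the nuclear receptors and to the aryl hydrocarbon receptor. Some CYP genes have other duties, such as steroid synthesis (CYP11A1, CYP17A1, CYP19A1, CYP21A2), breakdown of retinoic acid (the CYP26 genes) and vitamin D turnover (CYP2R1, CYP24A1).

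All values are FPKM (fragments per kilobase of transcript, scaled to the mapped fragments of the library), so levels of different genes are compared per length. The sum over all genes was 571235 to 642102 FPKM in livers and 472622 to 504508 FPKM in fats, and between 10735 and 12412 genes reached 1 FPKM in a library. The read depth of a library is not given in the tables. The tissue markers went with the labels. The hepatocyte list (11 of 11 genes found) summed to 87848 to 93491 FPKM in HN livers, 93206 to 104467 in NN livers, 3526 to 7849 in HN fats and 8609 to 10594 in NN fats, and the adipocyte list (8 of 8 found) to 398 to 486, 312 to 409, 14875 to 17420 and 16150 to 20335 FPKM in the same groups. The signal of the hepatocyte list in fats came mostly from APOA1. Of the fat libraries, HN fat 3 was most like NN fat 3 (Pearson's r = 0.991 across genes on log2(FPKM + 1), which are not independent replicates), against 0.942 to 0.976 for the other 14 pairs of fats. HN fat 3 thus stood nearer to an NN library than to its own group. Some other HN libraries did so too. HN liver 1 was at 0.9735 with NN liver 1, against 0.9453 and 0.961 with HN livers 2 and 3. HN liver 3 was at 0.9712 with NN liver 2, against 0.961 and 0.9531 with HN livers 1 and 2. HN fat 1 did so by a small margin. Because of its r of 0.991, HN fat 3 was singled out. The counts of enzyme genes in fat, with the genes under an unadjusted p of 0.05, are also given without it.

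In liver 34 of the 48 genes had a mean of at least 1 FPKM, and in fat 27. Both tissues passed this level for 23 genes, liver alone for 11, fat alone for 4 and neither for 10. The 48 genes together summed to 5791, 4809 and 4718 FPKM in HN livers 1 to 3, against 3882, 4220 and 3840 FPKM in NN livers 1 to 3, and in the fats to 950, 883 and 848 FPKM in HN fats and 1003, 865 and 924 FPKM in NN fats. Their share of all FPKM was therefore 0.663% to 0.961% in livers and 0.178% to 0.204% in fats. The CYP genes took most of the sum in liver (2425 to 3927 FPKM), whereas in fat the GST genes did (530 to 665 FPKM) and the CYP genes came to 104 to 242 FPKM. The map of all 48 genes by library shows this split by tissue.

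**Figure D1:**
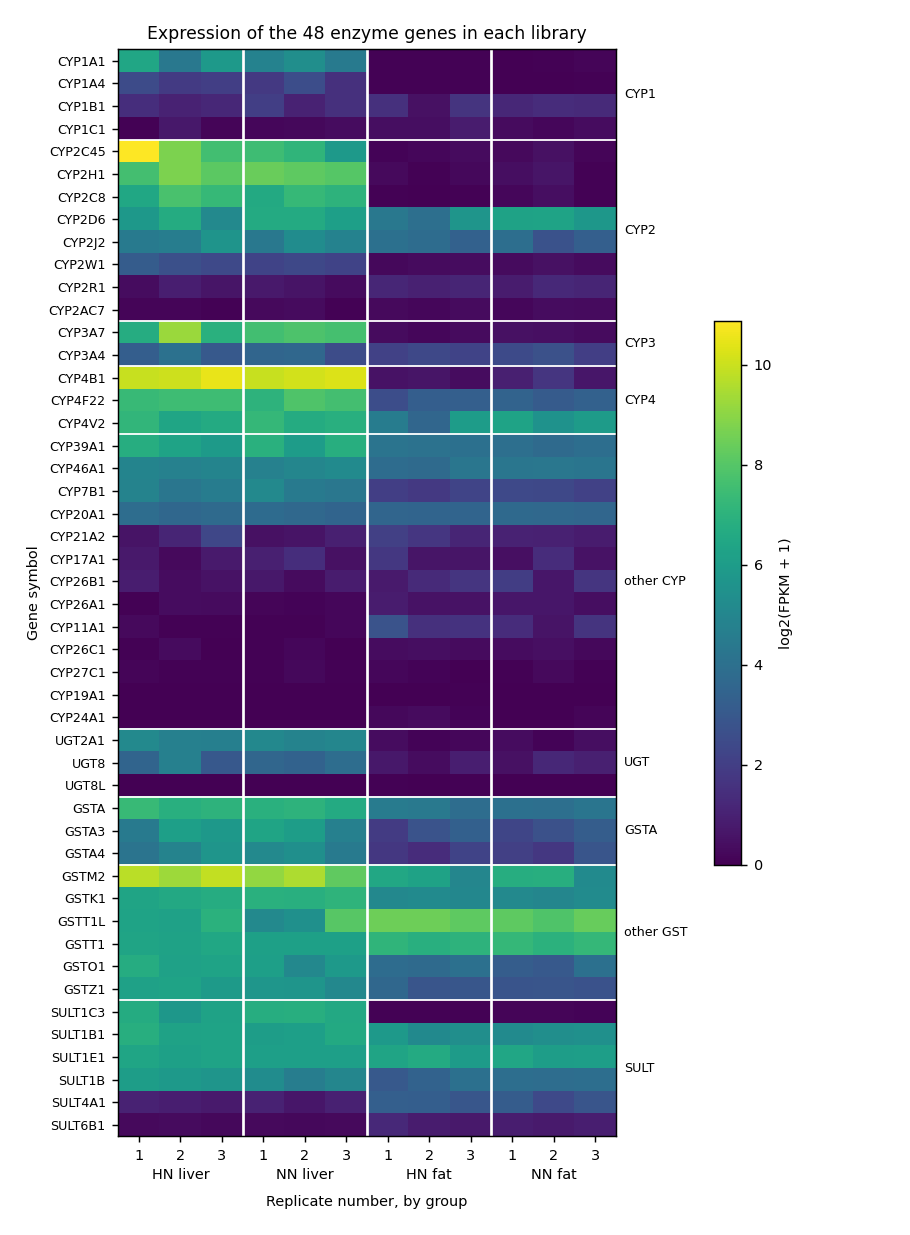
Each row is 1 of the 48 genes, grouped by enzyme family, each column 1 library (HN liver, NN liver, HN fat, NN fat, replicates 1 to 3), and the colour is log2(FPKM + 1). CYP4B1, GSTM2 and, in HN liver 1, CYP2C45 are the brightest genes in livers, while GSTT1L and GSTT1 lead in fats, and 8 genes stay below 1 FPKM in every library.

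The liver of these birds expressed a small number of P450 genes at a high level. CYP4B1 (gene ID 424618, CYP4B7 in RefSeq), from a group that in mammals hydroxylates the ends of medium-chain fatty acids, was the highest of the 48 genes in livers on average, with 1003, 1051 and 1469 FPKM in HN livers 1 to 3, against 987, 1131 and 1242 FPKM in NN livers 1 to 3. In fats it was at 0.45, 0.52 and 0.27 FPKM in HN birds and at 0.95, 2.2 and 0.60 FPKM in NN birds. Every liver was therefore far above every fat, and the highest of the 6 livers was only 1.49 times the lowest. The other CYP4 genes were also seen in fat. CYP4F22 (long-chain fatty acid hydroxylation in mammals) ranged from 130 to 236 FPKM in livers and from 4.97 to 9.86 FPKM in fats, and CYP4V2, a fatty acid hydroxylase known in humans from a retinal dystrophy, from 83.9 to 150 FPKM in livers and from 11.1 to 77.0 FPKM in fats.

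The CYP2 genes held the most uneven member. CYP2C45 (gene ID 414833, CYP2C18 in RefSeq), a chicken gene that phenobarbital-like drugs induce in hepatocytes, was at 1868, 423 and 188 FPKM in HN livers 1 to 3 and at 180.0, 139 and 56.0 FPKM in NN livers 1 to 3. All HN livers lay above all NN livers, with HN liver 3 only just above NN liver 1, and HN liver 1 stood far above the rest. In fats it was at 0.09, 0.14 and 0.23 FPKM in HN birds and at 0.21, 0.39 and 0.11 FPKM in NN birds. Its highest liver was 33.3 times its lowest, and this ratio had a median of 2.43 over the 34 genes and of 1.82 over all 11182 genes with a liver mean of at least 1 FPKM and a value above 0 in each liver.

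CYP2H1 (gene ID 414746), another gene of drug-induced chicken hepatocytes, did not follow CYP2C45. It was at 198, 419 and 282 FPKM in HN livers, against 330, 292 and 257 FPKM in NN livers, and at 0.06 to 0.53 FPKM in the 6 fats. CYP2C8 (gene ID 414841, with the older name CYP2H2), its direct neighbour in the RefSeq assembly GRCg7b, was at 87.4, 216 and 155 FPKM in HN livers and at 95.4, 155 and 128 FPKM in NN livers, and at 0 to 0.32 FPKM in fats. In both genes the highest and the lowest liver belonged to HN birds 2 and 1, so the diets overlapped. These paralogs are alike in sequence, and how the authors' counting shared reads between them is uncertain.

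CYP2D6 (gene ID 417981), the chicken gene named after the human enzyme that oxidizes many drugs, was the CYP2 gene with the highest level in fat. It was at 53.7, 102 and 33.9 FPKM in HN livers and at 99.8, 99.8 and 70.0 FPKM in NN livers, and at 19.7, 14.6 and 49.4 FPKM in HN fats and 75.7, 78.3 and 52.9 FPKM in NN fats. In fat each HN bird was below each NN bird, while in liver HN liver 2 lay above all NN livers. Of the remaining CYP2 genes, CYP2J2 (arachidonic acid epoxidation in humans) ranged from 19.6 to 48.1 FPKM in livers and from 5.67 to 15.0 in fats, CYP2W1 from 3.54 to 7.88 in livers and from 0.19 to 0.40 in fats, and CYP2R1, the vitamin D 25-hydroxylase, from 0.25 to 0.86 in livers and from 0.78 to 1.36 in fats. CYP2AC7 did not exceed 0.28 FPKM in any library.

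CYP3A7 (gene ID 414832, known in chicken as CYP3A37), from the subfamily that handles the widest range of drugs in humans, was at 106, 596 and 117 FPKM in HN livers and at 193, 225 and 204 FPKM in NN livers. In HN fats it was at 0.24, 0.14 and 0.24 FPKM and in NN fats at 0.39, 0.38 and 0.24 FPKM. The NN livers were close to each other, while HN liver 2 was the highest and HN livers 1 and 3 the lowest of the 6. Its direct neighbour CYP3A4 (gene ID 416477) was lower, at 8.48, 15.7 and 7.10 FPKM in HN livers, against 10.6, 11.4 and 4.69 FPKM in NN livers, and at 3.25, 4.15 and 3.50 FPKM in HN fats and 4.39, 5.55 and 3.08 FPKM in NN fats. HN liver 2 was also the highest liver for CYP3A4, and 1 NN liver fell into the range of the fats.

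The CYP1 genes, which the aryl hydrocarbon receptor induces, were led by CYP1A1 (gene ID 396051, CYP1A2 in RefSeq). It was at 84.5, 19.2 and 57.4 FPKM in HN livers and at 27.2, 41.0 and 21.6 FPKM in NN livers, so the HN livers held both the highest and the lowest value. In the fats it did not exceed 0.10 FPKM. Its neighbour CYP1A4 ranged from 1.88 to 4.85 FPKM in livers and from 0 to 0.04 in fats, and CYP1B1 from 1.04 to 3.05 in livers and from 0.39 to 2.08 in fats.

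Of the 13 other CYP genes, 5 had a mean of at least 1 FPKM in liver and 7 in fat. The highest in liver were CYP39A1, CYP46A1 and CYP7B1, which act on oxysterols or cholesterol. CYP39A1 (gene ID 422058), which 7-hydroxylates 24-hydroxycholesterol, was at 107, 78.0 and 59.2 FPKM in HN livers and at 117, 63.5 and 110 FPKM in NN livers, and at 17.1, 16.3 and 15.0 FPKM in HN fats and 14.7, 12.7 and 14.2 FPKM in NN fats. CYP46A1 (gene ID 423450), the cholesterol 24-hydroxylase best known from brain, was at 28.9, 26.1 and 28.8 FPKM in HN livers, against 26.6, 30.7 and 36.2 FPKM in NN livers, and at 13.2, 12.7 and 18.2 FPKM in HN fats and 18.1, 19.0 and 17.8 FPKM in NN fats. Both genes were higher in every liver than in every fat. CYP7B1, an oxysterol 7-hydroxylase, ranged from 18.4 to 33.4 FPKM in livers and from 2.54 to 4.23 in fats, and the orphan CYP20A1 from 10.2 to 13.8 in livers and from 10.33 to 11.97 in fats.

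Steroid-making CYP genes were low in both tissues. CYP21A2 (gene ID 429828), the steroid 21-hydroxylase, was at 0.50, 1.15 and 3.92 FPKM in HN livers and at 0.41, 0.48 and 0.92 FPKM in NN livers, and at 3.11, 2.32 and 1.15 FPKM in HN fats and 1.04, 0.99 and 0.78 FPKM in NN fats. HN fats thus lay above NN fats, although HN fat 3 was close to NN fat 1. CYP11A1, the cholesterol side-chain cleavage enzyme, was at 0.03 to 0.20 FPKM in livers and at 0.50 to 5.84 FPKM in fats. CYP17A1 did not exceed 2.36 FPKM, CYP19A1 (aromatase) 0.03 FPKM, CYP24A1 0.24 FPKM and CYP26A1 0.79 FPKM in any library.

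Of the conjugation genes, GSTM2 (gene ID 395976), a mu class GST, was the highest in livers on average, and the second highest of all 48 genes there, with 844, 619 and 941 FPKM in HN livers 1 to 3, against 557, 750 and 294 FPKM in NN livers 1 to 3. In fats it was at 89.8, 74.7 and 30.9 FPKM in HN birds and at 108.9, 110.0 and 35.8 FPKM in NN birds. The third library was the lowest of its group in NN livers, HN fats and NN fats, but the highest in HN livers. GSTA (gene ID 414895, GSTA2 in RefSeq), of the alpha class that also reduces lipid peroxides, was at 160, 115 and 128 FPKM in HN livers and at 118, 129 and 100 FPKM in NN livers, and at 22.2, 20.3 and 13.6 FPKM in HN fats and 15.0, 14.9 and 17.7 FPKM in NN fats. The alpha class genes GSTA3 and GSTA4, direct neighbours of each other, ranged from 20.5 to 80.8 and from 17.3 to 50.4 FPKM in livers and from 2.67 to 9.20 and from 1.59 to 6.21 FPKM in fats.

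The neighbouring theta class genes GSTT1L and GSTT1 had the reverse pattern and led the list in fat. GSTT1L (gene ID 769847) was at 77.5, 73.4 and 121 FPKM in HN livers and at 33.9, 42.5 and 261 FPKM in NN livers. In fats it was at 355, 354 and 289 FPKM in HN birds and at 289, 233 and 322 FPKM in NN birds. NN liver 3 therefore stood apart from the other livers and reached the range of the fats, and the highest liver was 7.70 times the lowest. GSTT1 (gene ID 396322) was at 79.9, 75.6 and 86.8 FPKM in HN livers and at 72.0, 71.0 and 71.1 FPKM in NN livers, against 135, 116 and 131 FPKM in HN fats and 148, 127 and 149 FPKM in NN fats. NN liver 3 was not raised for GSTT1, and all fats were above all livers.

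Of the SULT genes, SULT1E1 (gene ID 422662), the estrogen sulfotransferase, had nearly the same level throughout, with 82.5, 70.4 and 78.7 FPKM in HN livers, against 68.5, 68.5 and 69.1 FPKM in NN livers, and with 81.5, 99.0 and 62.0 FPKM in HN fats and 84.9, 65.7 and 68.2 FPKM in NN fats. SULT1C3 (gene ID 395300), of a subfamily that sulfates phenols, was found in livers alone, at 101, 52.3 and 76.7 FPKM in HN birds and 108.9, 112 and 94.6 FPKM in NN birds, with 0.04 to 0.12 FPKM in fats. SULT4A1 (gene ID 418232), a brain sulfotransferase in mammals, was in contrast higher in fats, at 1.08, 0.87 and 0.74 FPKM in HN livers, against 1.07, 0.60 and 0.98 FPKM in NN livers, and at 8.89, 8.61 and 6.61 FPKM in HN fats and 7.87, 4.31 and 6.32 FPKM in NN fats. The 3 genes thus took 3 different tissue patterns within a single family, as read from the FPKM as deposited. That of SULT1E1 depended on the scaling between libraries, as given below.

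The 3 UGT genes that met the symbol rule had a lower sum than the CYP, GST and SULT genes. It was 31.74 to 51.56 FPKM in livers and 0.38 to 1.39 FPKM in fats. UGT2A1 (gene ID 422660), known in mammals from the olfactory epithelium and next to SULT1B in the genome, was at 34.1, 25.6 and 24.8 FPKM in HN livers and at 32.2, 28.1 and 31.1 FPKM in NN livers, and did not exceed 0.32 FPKM in fats. UGT8, the ceramide galactosyltransferase of myelin, ranged from 6.96 to 25.9 FPKM in livers and from 0.29 to 1.29 in fats, and UGT8L did not exceed 0.04 FPKM in any library.

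Liver was then compared with fat within each diet. The test was limma on log2(FPKM + 1) over all genes that averaged 1 FPKM or more in the 6 libraries, with Benjamini-Hochberg adjustment, and a gene was called at an adjusted p under 0.05. Fold changes are liver over fat on the log2(FPKM + 1) scale, which understates those of genes near 0. In HN birds 31 of the 36 tested enzyme genes were called, with 27 higher and 4 lower in liver, and in NN birds 30 of 35, with 27 higher and 3 lower. Without HN fat 3 the counts in HN birds were 27 and 4. Over all genes 65.6% were called in HN birds and 76.0% in NN birds, that is 14.8% of 12511 genes higher and 50.7% lower in HN birds, and 16.6% of 12492 higher and 59.4% lower in NN birds. The median log2 fold change of the tested enzyme genes was 2.39 in HN birds and 2.26 in NN birds, while that of all tested genes was -0.64 and -0.65. The top 10 genes of a library held 21.8% to 25.6% of its FPKM in livers and 10.1% to 11.8% in fats, and the place of 0 depended on the scaling between libraries. After median-ratio scaling the medians of all genes were 0.01 and 0.01, those of the enzyme genes 3.04 and 2.98, and the called enzyme genes were 30 higher and 3 lower in HN birds and 31 higher and 1 lower in NN birds. Over all called genes the share that was higher in liver was 51.2% and 50.4% after this scaling, against 22.6% and 21.9% without it. The filter on the mean of the 6 libraries let a gene pass through 1 tissue alone, and 11 enzyme genes reached 1 FPKM on average in livers only. With no filter on low values, 27 of 48 enzyme genes were called higher and 8 lower in HN birds, and 26 and 7 in NN birds. Over all genes this fit called 1983 higher and 7224 lower of 17695 in HN birds, and 2326 and 8372 of 17647 in NN birds. Its median log2 fold change over the 48 enzyme genes was smaller, at 1.22 in HN birds and 0.97 in NN birds. Over all genes it was -0.33 and -0.35. In bulk tissue, fewer cells of a type and less RNA per cell cannot be told apart.

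**Figure D2:**
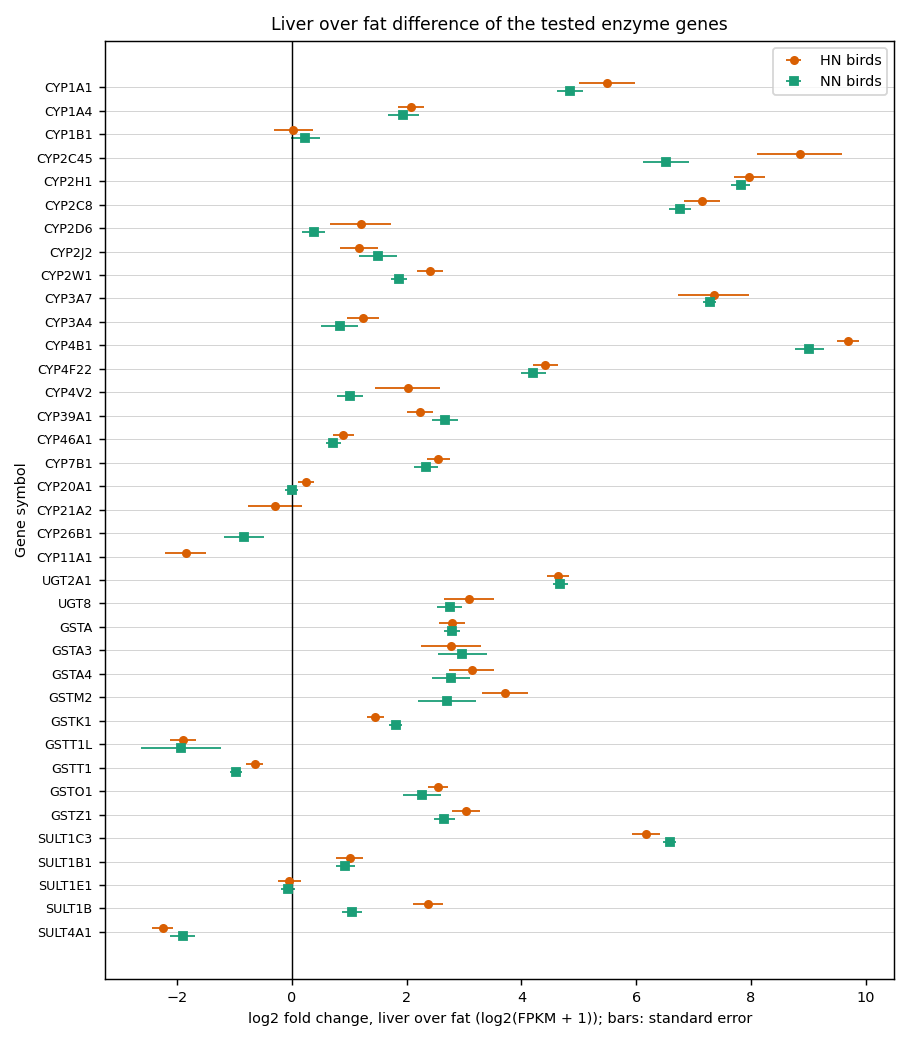
Points are log2 fold changes of liver over fat on the log2(FPKM + 1) scale in HN birds (circles) and NN birds (squares), with the standard error as a bar and genes in rows, where genes under 1 FPKM on average have no point. CYP4B1 lies furthest right at 9.68 in HN birds and 9.02 in NN birds, and of the called genes SULT4A1, GSTT1L, GSTT1 and, in HN birds, CYP11A1 lie left of 0.

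Of all tested genes 65.6% were called in HN birds and 76.0% in NN birds, and the share called in both was not counted. Among the enzyme genes the same 30 were called in both diets, 27 higher and 3 lower in liver. This is 30 of the 31 called in HN birds and 30 of the 30 in NN birds. The other gene, CYP11A1, was lower in liver in HN birds (-1.85 ± 0.35) and was under the filter in NN birds, where its livers were at 0.06 to 0.13 FPKM and its fats at 0.50 to 2.12 FPKM. The largest differences belonged to drug- and fatty acid-metabolizing genes. CYP4B1 differed by 9.68 ± 0.19 in HN birds and 9.02 ± 0.25 in NN birds (log2, ± SE, 3 livers against 3 fats, limma adjusted p = 1.8e-07 and 1.37e-07). In NN birds, by which these genes were ranked, CYP2H1 came next, with 7.97 ± 0.27 in HN and 7.82 ± 0.17 in NN birds, followed by CYP3A7 with 7.35 ± 0.62 and 7.28 ± 0.11, CYP2C8 with 7.14 ± 0.31 and 6.76 ± 0.19, and SULT1C3 with 6.17 ± 0.24 and 6.58 ± 0.11. In these 5 genes, CYP4B1 included, each liver was above each fat in both diets. CYP2C45, second in HN birds, was at 8.85 ± 0.74 in HN birds and 6.52 ± 0.40 in NN birds, UGT2A1 at 4.64 ± 0.19 and 4.68 ± 0.13, CYP1A1 at 5.48 ± 0.49 and 4.84 ± 0.22, and GSTM2 at 3.71 ± 0.40 and 2.70 ± 0.50, all called in both.

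By family, called members were 2 of 3 tested CYP1 genes, 5 of 6 CYP2, 2 of 2 CYP3, 3 of 3 CYP4, 2 of 2 UGT and 3 of 3 GSTA genes in either diet, all higher in liver. In the other CYP genes 3 were higher and 1, CYP11A1, lower of 6 tested in HN birds, and 3 were higher of 5 tested in NN birds. The GSTA genes were close to each other, at 2.77 to 3.13 in HN birds and 2.77 to 2.97 in NN birds. In the other GST genes 4 were higher and 2 lower, and in the SULT genes 3 higher and 1 lower of 5 tested. Over all tested genes 14.8% were higher and 50.7% lower in HN birds, and 16.6% and 59.4% in NN birds. GSTZ1, GSTO1 and GSTK1 were higher in liver by 3.03, 2.55 and 1.45 in HN birds and by 2.66, 2.26 and 1.81 in NN birds.

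GSTT1L was lower in liver, at -1.89 ± 0.23 in HN birds (adjusted p = 0.000313) and -1.93 ± 0.70 in NN birds (adjusted p = 0.0374). The call in NN birds was lost when any single library was left out except NN liver 3, with a log2 fold change of -1.39 without NN liver 1, the smallest of those fits, and of -2.84 without NN liver 3. It was also lost after median-ratio scaling, at -1.17. SULT4A1 was lower too, at -2.25 ± 0.18 and -1.91 ± 0.22 and was called in both diets. GSTT1 was lower, at -0.65 ± 0.14 in HN birds and -0.97 ± 0.10 in NN birds, but after median-ratio scaling it stood at 0.12 in HN birds and -0.22 in NN birds and was not called in either, so its direction depends on the scaling. The smallest called differences in the other direction in NN birds were those of CYP46A1, at 0.90 ± 0.18 and 0.72 ± 0.13, and of CYP3A4, at 1.23 ± 0.28 and 0.83 ± 0.32 (adjusted p = 0.00671 and 0.0464). For CYP3A4 the call in NN birds was lost in 4 of the 6 fits with 1 library left out.

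A few genes were not called between the tissues in either diet. SULT1E1 differed by -0.04 ± 0.20 in HN birds and -0.08 ± 0.12 in NN birds, and after median-ratio scaling by 0.72 and 0.68, where both were called. CYP20A1 was at 0.24 and -0.00 and CYP1B1 at 0.03 and 0.24, neither called. CYP2D6 was at 1.2 ± 0.53 in HN birds (adjusted p = 0.0814) and 0.38 ± 0.20 in NN birds (adjusted p = 0.124), and after median-ratio scaling it was at 1.95 and 1.13 and was called in both. CYP20A1 was then called in both diets too, and CYP1B1 in NN birds. Quantile normalization also called CYP20A1 in both diets and CYP1B1 in NN birds. A fit with the replicate number as a block assumes that a number is the same bird in both tissues, which the source does not say. It called 2 more genes in NN birds. These were CYP2D6, with a limma adjusted p of 0.0193, and CYP26B1, a retinoic acid hydroxylase, at -0.83. The limma adjusted p of CYP26B1 was 0.0151 with the block and 0.0632 without it. CYP21A2, tested in HN birds only, was at -0.30 ± 0.46.

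The diet was then compared within liver, HN over NN. None of the 34 tested enzyme genes was called, and the percentage of all 11278 tested genes called was 0, with the smallest adjusted p among the enzyme genes at 0.392. At an unadjusted p under 0.05 there were 4 enzyme genes higher and 1 lower in HN livers, which is 11.8% and 2.94% of the 34, against 3.42% of all genes higher and 8.54% lower. Complete separation of the 3 HN from the 3 NN livers was seen in 7 enzyme genes that were higher and 1 that was lower, against 6.12% of all genes higher and 15.0% lower. Some cell type markers also separated the livers. The bile duct list (5 of 5 genes found) summed to 49.3 to 60.7 FPKM in HN livers, against 67.8 to 88.1 in NN livers. This gap came from EPCAM (43.6 to 54.4 against 63.9 to 81.7 FPKM), and the other genes of that list overlapped. The endothelium list (6 of 6 found) summed to 29.96 to 48.47 FPKM in HN livers, against 48.49 to 74.53 in NN livers. Of its genes EMCN, VWF and TEK were lower in each HN liver than in each NN liver, while PECAM1, CDH5 and KDR overlapped. Of the hepatocyte list, ALB was at 19544 to 32466 FPKM in HN livers, against 37626 to 55672 in NN livers, and APOB at 76.3 to 136, against 146 to 170. The other hepatocyte genes overlapped, and APOA1 was higher on average in HN livers, at 33052 to 48616 FPKM, against 25855 to 34894. The whole hepatocyte list overlapped between the diets, with 87848 to 93491 FPKM in HN livers, against 93206 to 104467 in NN livers. The part of these markers in the diet differences of liver was not tested. The median log2 fold change was 0.12 over the enzyme genes and -0.06 over all genes. The standard errors of the enzyme genes ran from 0.13 to 0.85 on the log2 scale, and a p above the threshold does not show that the diets were alike.

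**Figure D3:**
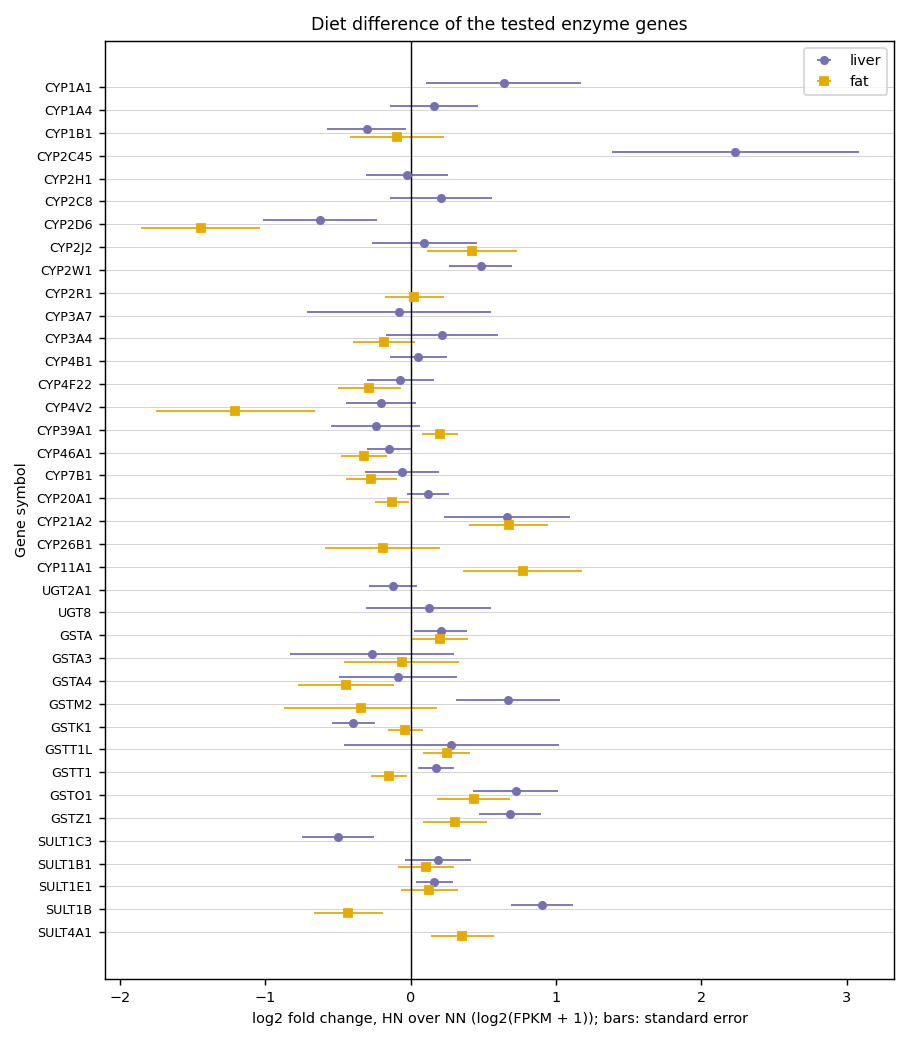
Points are HN over NN as log2 fold changes of FPKM + 1, in liver (circles) and abdominal fat (squares), with the standard error as a bar. No point passed the adjusted threshold, CYP2C45 in liver lies furthest right at 2.23 with a standard error of 0.85, and CYP2D6 in fat furthest left at -1.44.

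SULT1B (gene ID 422661), of the subfamily that sulfates phenols and thyroid hormone in mammals, had the smallest p of the enzyme genes in liver. It was at 65.9, 56.3 and 50.4 FPKM in HN livers, against 38.3, 23.2 and 30.8 FPKM in NN livers. All HN livers lay above all NN livers, by 0.90 ± 0.21 on the log2 scale (limma p = 0.00419, adjusted p = 0.392, exact permutation p = 0.1). In fats it was at 7.19, 9.76 and 15.0 FPKM in HN birds and at 14.2, 13.9 and 14.1 FPKM in NN birds. Its direct neighbour SULT1B1, also named SULT1B in RefSeq's synonyms, was at 110.8, 74.9 and 79.2 FPKM in HN livers, against 65.3, 69.7 and 97.2 FPKM in NN livers, and the diets overlapped.

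GSTZ1 (gene ID 423374), the maleylacetoacetate isomerase of tyrosine breakdown, was at 74.0, 78.4 and 60.2 FPKM in HN livers, against 50.9, 49.4 and 32.7 FPKM in NN livers, with no overlap and a log2 fold change of 0.68 ± 0.21 (p = 0.0158, adjusted p = 0.398, limma, exact permutation p = 0.1). GSTO1 (gene ID 423881, GSTO2 in RefSeq), which in mammals reduces dehydroascorbate, was at 103.6, 74.6 and 77.8 FPKM in HN livers, against 68.8, 32.8 and 57.8 FPKM in NN livers, again with no overlap (0.72 ± 0.29, p = 0.044, adjusted p = 0.41, limma, exact permutation p = 0.1). GSTK1 (gene ID 418302), a GST of mitochondria and peroxisomes, lay the other way, at 81.5, 92.9 and 104 FPKM in HN livers, against 117, 116 and 132 FPKM in NN livers (-0.39 ± 0.15, p = 0.0348, adjusted p = 0.401, limma, exact permutation p = 0.1). In fats GSTZ1 was at 11.3, 6.25 and 6.49 FPKM in HN birds and 6.15, 6.33 and 5.72 FPKM in NN birds, GSTO1 at 13.3, 12.6 and 14.9 FPKM and 8.35, 7.31 and 15.1 FPKM, and GSTK1 at 31.4 to 35.2 FPKM and 31.0 to 37.2 FPKM.

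The difference of CYP2C45 in liver was the largest, at 2.23 ± 0.85 on the log2 scale (p = 0.0347, adjusted p = 0.401, limma, exact permutation p = 0.1). Without HN liver 1 it was 1.33 ± 0.58 with a p of 0.0632. Over the 6 fits with 1 liver left out, SULT1B and GSTZ1 were under a p of 0.05 in all 6, CYP2C45 in 2, and GSTK1 and GSTO1 in 1 each. The exact permutation tests were two-sided on FPKM, and 0.1 is the smallest p that 3 birds against 3 allow. The other separated genes were CYP2W1, GSTT1 and SULT1E1, all higher in HN livers, with unadjusted limma p-values of 0.0606, 0.212 and 0.249.

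Of the summed FPKM of the 30 CYP genes, HN livers had 3927, 3276 and 2776 and NN livers had 2425, 2610 and 2507. The HN livers were all higher, and the mean was 0.40 higher on the log2 scale. Without CYP2C45 the sums were 2058, 2853 and 2588 FPKM in HN livers, against 2245, 2471 and 2451 FPKM in NN livers, which overlap, and the difference was 0.07. The summed GSTs were at 1458, 1226 and 1624 FPKM in HN livers, against 1132, 1298 and 995 FPKM in NN livers, and the summed SULTs at 361, 255 and 286 FPKM and 282, 274 and 293 FPKM. The sums hold only genes that meet the symbol rule. Left out were CYP2K1L and CYP4B1L, lower in each HN liver than in each NN liver, and CYP2C21L, higher in each. The order of the CYP sums therefore depends on the rule, and the sums were not tested.

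In abdominal fat none of the 27 tested enzyme genes was called for diet, as against 0.00807% of 12394 genes, that is 1 gene which is not an enzyme of the list. At an unadjusted p under 0.05 there was 1 enzyme gene higher and 1 lower in HN fats, 3.70% of the 27 each, against 2.39% of all genes higher and 2.29% lower. Among the 27, the groups did not overlap for 2 enzyme genes that were higher (CYP21A2 and CYP39A1) and 2 that were lower (CYP2D6 and CYP20A1). Over all tested genes this held for 3.49% higher and 6.81% lower. Of the enzyme genes under the filter, CYP1C1 (higher) and CYP4B1 and SULT1C3 (lower) did not overlap either. The median log2 fold change was -0.06 over the enzyme genes and -0.07 over all genes.

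CYP2D6, with the values given above, was lower in each HN fat than in each NN fat, with a log2 fold change of -1.44 ± 0.41 (p = 0.00895, adjusted p = 0.799, limma, exact permutation p = 0.1). The means were 27.9 ± 18.8 FPKM in HN fats and 68.94 ± 13.959 FPKM in NN fats (SD, n = 3 each). Without HN fat 3, which was nearer to NN fat 3 than to its group, the difference was -1.94 ± 0.22, with an adjusted p of 0.0941. Over the 6 fits with 1 fat left out, CYP2D6 was under an unadjusted p of 0.05 in all 6 and CYP21A2 in 1, that without HN fat 3. CYP4V2 was also lower on average in HN fats, with 22.7, 11.1 and 62.5 FPKM in HN fats and 77.0, 45.1 and 61.4 FPKM in NN fats, where HN fat 3 alone overlapped the NN fats (-1.21 ± 0.55, adjusted p = 0.799, limma). The CYP sum of fat was 128, 104 and 193 FPKM in HN fats and 242, 202 and 192 FPKM in NN fats. Without CYP2D6 and CYP4V2 it was 85.5, 78.2 and 80.9 FPKM in HN fats and 89.1, 79.0 and 78.2 FPKM in NN fats, and the groups overlapped in both cases. HN fat 3 alone made the whole CYP sums overlap, and HN fats 1 and 2 lay below every NN fat.

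CYP21A2 was higher in HN fats by 0.67 ± 0.27 (p = 0.0395, adjusted p = 0.799, limma, exact permutation p = 0.1), and by 0.93 ± 0.22 without HN fat 3 (adjusted p = 0.228). In that fit 6 of 28 tested enzyme genes and 1508 of 12398 genes were under a p of 0.05, and still 0 enzyme genes were called. Beside CYP2D6 and CYP21A2 these were CYP4V2 at -1.84, SULT1B at -0.68 and CYP46A1 at -0.47, and GSTA at 0.40 (limma adjusted p = 0.166, 0.236, 0.293 and 0.384). Some markers of other cell types differed between the diets in fat. The stroma list (6 of 6 genes found) summed to 4339 to 9749 FPKM in HN fats and to 3928 to 4224 FPKM in NN fats. Its genes COL3A1 and COL1A2 separated the diets, COL3A1 narrowly, at 2326 to 4386 against 2079 to 2321 FPKM. COL1A1, DCN, LUM and PDGFRA overlapped. The hepatocyte list summed to 3526 to 7849 FPKM in HN fats and to 8609 to 10594 FPKM in NN fats. Most of this sum was APOA1, at 3455 to 7735 FPKM in HN fats and 8506 to 10501 FPKM in NN fats. FGA, FGB and FGG were also lower in each HN fat than in each NN fat, and none exceeded 5.63 FPKM. The other genes of that list overlapped, among them ALB, at 19.4 to 22.0 FPKM in HN fats and at 20.7 to 96.5 FPKM in NN fats. Of the 5 genes found on the list for steroid-making glands, 4 had a mean below 1 FPKM in each fat group. The part of these markers in the results of CYP2D6, CYP4V2 and CYP21A2 was not tested.

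**Figure D4:**
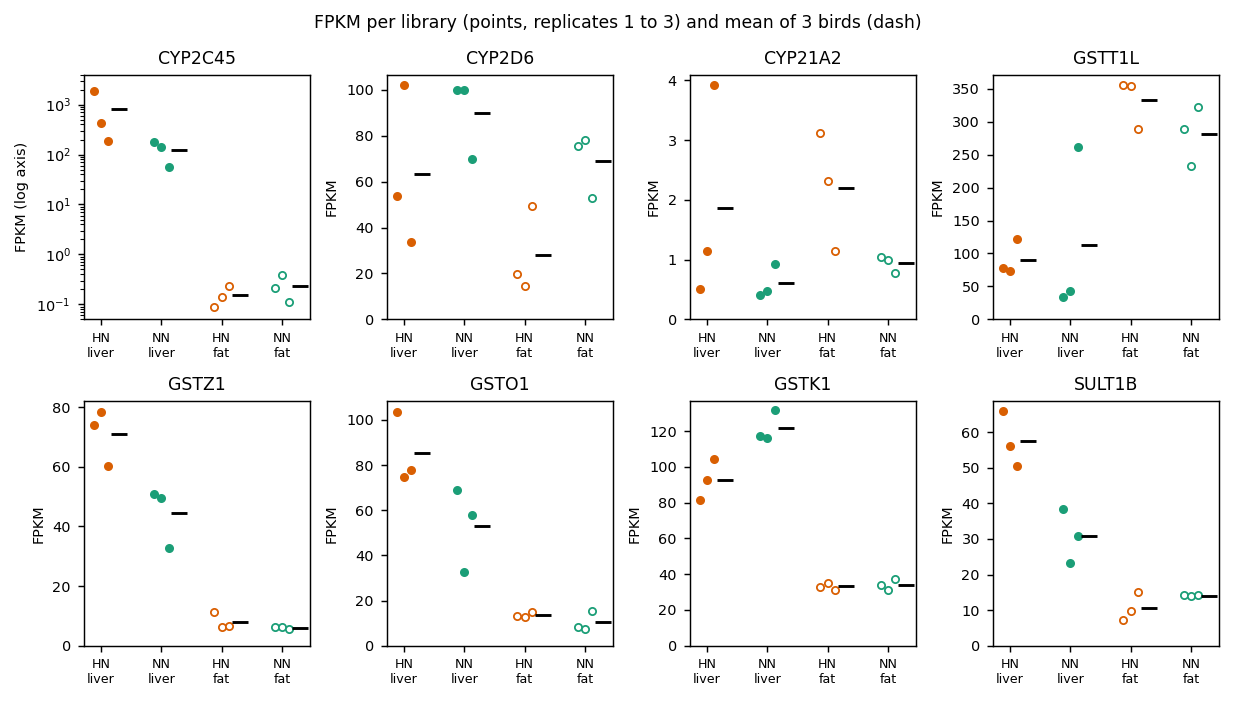
FPKM of 8 genes in each library, with filled points for livers, open points for fats and a dash for the mean of 3 birds, on a log axis for CYP2C45 and a linear axis from 0 for the others. HN livers lie above NN livers for CYP2C45, SULT1B, GSTZ1 and GSTO1 and below them for GSTK1, HN fats lie below NN fats for CYP2D6, and NN liver 3 at 261 FPKM of GSTT1L lies apart from the other livers.

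Whether the diet difference itself differed between the tissues was tested as an interaction over the 12 libraries. None of 37 tested enzyme genes was called, as with 0% of 12544 genes. At an unadjusted p under 0.05 in either direction there were 2 enzyme genes, 5.41% of the 37, against 570 of the 12544 genes. Both enzyme genes had the larger value in liver, a direction in which 2.05% of all genes were under this p. SULT1B was at 0.90 in liver and -0.43 in fat, and the difference was 1.33 ± 0.33 (adjusted p = 0.694, limma). CYP2C45 was at 2.33 ± 0.94 (adjusted p = 0.998, limma), and this gene was under 1 FPKM in every fat.

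Genes that work with these enzymes were counted from lists. For liver over fat the counts are of called genes, beside 14.8% of all genes higher and 50.7% lower in HN birds and 16.6% and 59.4% in NN birds, and for diet in liver 0% of all genes were called. Of the 8 electron partners of P450, 5 were higher and 2 lower in liver than in fat in HN birds, and 4 and 3 in NN birds. For diet 0 were called, and FDXR, the mitochondrial ferredoxin reductase, was under a p of 0.05 in liver, at 18.9, 25.3 and 23.5 FPKM in HN livers, against 14.9, 17.3 and 17.1 FPKM in NN livers (0.43 ± 0.16, adjusted p = 0.399, limma). Of 8 tested regulators 6 were higher and 1 lower in liver in both diets. PPARA, the fatty acid receptor, was at 28.8, 9.30 and 24.0 FPKM in HN livers, against 37.9, 41.3 and 33.9 FPKM in NN livers (-0.97 ± 0.39, adjusted p = 0.407, limma), and NR1H4, the bile acid receptor, at 22.4, 18.1 and 20.4 FPKM and 32.0, 24.0 and 54.3 FPKM (-0.75 ± 0.29, adjusted p = 0.406, limma). Each HN liver was below each NN liver for both receptors, as it was for 15.0% of all 11278 tested genes.

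Among the 12 genes that supply cofactors for conjugation, 6 were higher and 1 lower in liver in HN birds (all genes 14.8% and 50.7%) and 5 and 3 in NN birds (16.6% and 59.4%). CBS, the first enzyme from homocysteine to cysteine, was at 24.8, 21.9 and 20.7 FPKM in HN livers, against 32.7, 40.9 and 35.3 FPKM in NN livers (-0.67 ± 0.15, adjusted p = 0.392, limma), and CTH, the next enzyme, had a log2 fold change of -0.46 ± 0.19. Of the other phase I and II enzymes, 14 of 19 tested were higher in liver in HN birds and 15 of 20 in NN birds, with 3 and 4 lower. For diet in liver MGST1 (membrane-bound GST) and FMO5 were lower in HN at p under 0.05, at -0.37 and -0.54, and BPHL and EPHX2, the soluble epoxide hydrolase, were higher, by 0.49 and 0.40. In fat ALDH1A1 (-1.13), which makes retinoic acid, was lower in HN at this level, with all 6 fats in the fit. None of them was called by limma after adjustment. The 9 tested transporters for conjugates, which are ABC export pumps and the SLCO uptake carriers SLCO1A2 and SLCO2B1, held 4 that were higher, SLCO1A2 among them, and 4 that were lower in liver in each diet, and 0 at p under 0.05 for diet in liver or in fat.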

How the data were processed

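RNA of 12 libraries (3 each of HN liver, NN liver, HN fat and NN fat) was sequenced by the authors on the BGISEQ platform, and they deposited FPKM per gene and library, which already holds scaling for library size and transcript length. The submitters' processing notes name HISAT2 2.0.4, Bowtie2 2.2.5 and RSEM 1.2.12. The genome build is not given in the sources used here. How reads shared by close paralogs (CYP2C and CYP2H, CYP3A, GSTA, GSTT and SULT1B genes) were divided is not stated there, so their values are uncertain. Depth per library is unknown, and no counting interval is given. Of the 48 genes, 47 matched RefSeq (GRCg7b) by gene ID, of which 36 had the same symbol.

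log2(FPKM + 1) was tested with limma 3.58.1 in R 4.3.3 (trend, two-sided, Benjamini-Hochberg over all genes averaging 1 FPKM or more in the fit), tested on simulated data. Python 3.11.15 with scipy 1.17.1 gave exact permutation tests. Samples were grouped by title. The source does not say whether a number is 1 bird in both tissues. Deviations from group means of same-numbered livers and fats correlated at 0.227, 0.398 and 0.121 in HN and 0.295, 0.274 and 0.234 in NN. Livers and fats of different numbers ranged from -0.372 to 0.192 in HN and from -0.176 to -0.086 in NN. Deviations cancel out within a group, so positive values for same numbers push those for different numbers down. These ranges are therefore not independent, and they do not settle whether a number is the same bird. Numbers were assumed to pair livers with fats only in the replicate block. The main fits of liver over fat and of the interaction, with their p-values, left this pairing out. Same-numbered HN and NN samples correlated at 0.399, 0.092 and -0.04 in liver and at 0.219, 0.041 and 0.229 in fat. HN and NN birds were fed different diets, so a number cannot stand for the same bird there. Some of these values were still as large as those of same-numbered livers and fats. Whether the numbers share anything else was not tested, and p-values measure only the spread between these samples.

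Genes given with each library's value were the highest of each family, the top 5 of each tissue, those at an unadjusted p under 0.05 for diet or interaction, and of the genes called between tissues in both diets, the 5 largest and 5 smallest log2 fold changes in NN birds. Others named singly were chosen after their values were seen. Some genes of the lists are not reported here. The genes and lists were chosen with earlier results of these data known. Alternatives were a pseudocount of 0.1, other filters, median-ratio scaling, quantile normalization, 1 fit of all libraries, a replicate block, no trend and each library left out.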

Additional observations from a re-analysis of the deposited data

How the results depend on the processing

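The diet comparisons and the interaction had 0 enzyme genes called under every alternative run, each library left out included. The replicate block between HN and NN, whose numbers do not pair the birds, gave 0 enzyme genes called in liver and in fat and 4 of 27 under an unadjusted p of 0.05 in fat, against 2 without it. With the block between liver and fat, 27 enzyme genes were higher and 4 lower in HN birds and 28 and 4 in NN birds, and no other call than those of CYP2D6 and CYP26B1 changed. The count of genes higher in liver stayed within 26 to 28 in HN birds and 25 to 28 in NN birds with 1 library left out. The count of lower genes moved, to 8 in HN birds and 7 in NN birds with no filter on low values, and in NN birds to 6 with a filter at 0.5 FPKM, 1 after median-ratio scaling, where GSTT1 and GSTT1L lost their calls, and 5 in a fit of all 12 libraries. The looser filters test more genes. The direction turned for CYP21A2 in HN birds (0.16 after median-ratio scaling, 0.37 after quantile normalization, and -0.78 to 0.0766 with 1 library left out), for GSTT1 in HN birds (0.12 after median-ratio scaling) and for SULT1E1 (0.72 in HN and 0.68 in NN birds after that scaling, and -0.22 to 0.11 and -0.15 to 0.0376 with 1 library left out). For CYP20A1 in NN birds it turned as well, from -0.0048 to 0.70 after median-ratio scaling and 0.63 after quantile normalization. Alternatives for the CYP sums and the medians were chosen after seeing the data. The sum difference in liver ranged from 0.27 to 0.52 and in fat from -0.87 to -0.40 with 1 library left out, and in fat was -0.01 without CYP2D6 and CYP4V2. Over all genes, 1853 higher and 6349 lower calls in HN birds became 3716 and 3538 after median-ratio scaling and 3172 and 3821 after quantile normalization, and 2075 and 7416 in NN birds became 4052 and 3982 and 3660 and 4388. The fit of all 12 libraries called 28 genes for diet in liver, 16 higher and 12 lower, where the fit of the livers called 0, and the replicate block called 4 genes in the interaction. Genes under an unadjusted p of 0.05 for diet numbered 1349 in liver, 563 without NN liver 1, and 580 in fat, 1508 without HN fat 3. FPKM does not give the depth behind a value, so the counting error of low genes is unknown, and with 3 birds a group the exact tests cannot go below 0.1.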

Other observations

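Genes of these families whose symbols fall outside the rule, with an L after the number, were looked at after the values were known. CYP2C21L, which lies next to CYP2C45 with 0 genes between them in RefSeq GRCg7b, was at 839.98, 628.32 and 205.6 FPKM in HN livers, against 123.62, 77.08 and 29.72 FPKM in NN livers, and did not exceed 0.37 FPKM in fats. Its HN livers were all above its NN livers, by 2.84 on the log2 scale (adjusted p = 0.392, limma), and its order of the 6 livers was that of CYP2C45. How reads shared by these neighbours were divided was not tested.

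CYP4B1L was at 120.11, 217.27 and 173.43 FPKM in HN livers and at 254.59, 401.0 and 331.89 FPKM in NN livers, with no overlap (-0.96, adjusted p = 0.392, limma), while CYP4B1 itself overlapped between the diets. CYP2K1L was at 1061 to 1499 FPKM in HN livers and 1579 to 1914 FPKM in NN livers, also with no overlap (-0.42, adjusted p = 0.422, limma). Its mean over the livers was 1486 FPKM, above the 1147 FPKM of CYP4B1, and it was at 0.47 to 3.05 FPKM in fats. CYP2J2L2 was in contrast lower in livers than in fats, at -1.29 in HN birds and -1.62 in NN birds on the log2 scale (adjusted p = 0.0493 and 1.54e-05, limma). CYP2J2L3 was at -0.89 in HN birds, where it was not called, and at -1.25 in NN birds (adjusted p = 0.0507 and 5.69e-05, limma).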
